A study of Mus musculus with 12 samples.

Results

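The genes described here are 10 genes of interleukin-6 (IL-6) family signalling and of the STAT3 pathway in mouse liver. They were taken by gene symbol from a fixed list, and each symbol matched 1 gene of the 24532 in the deposited table. This list and the further gene lists were chosen with earlier results of these data known. Counts of their genes beside shares of all tested genes are therefore descriptions. The receptors were *Il6ra*, *Il6st*, *Lifr*, *Osmr* and *Il1r1*, the kinases were *Jak1* and *Jak2*, and the list was completed by *Stat3*, *Socs3* and *Cebpb*. All 10 genes were among the 14038 that had enough reads to be tested.

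The study asked how loss of the aryl hydrocarbon receptor (AhR) in hepatocytes alters the liver of mice given alcohol. RNA from 12 livers was sequenced, with 3 livers in each of 4 groups, chosen at random from larger groups. All mice were male and of C57BL/6 background, began at 10 to 12 weeks of age and were fed a Lieber-DeCarli liquid diet for 5 weeks. The 3 livers labelled WT-con and the 3 labelled ALKO-con received the control diet, and the 3 labelled WT-EtOH and the 3 labelled ALKO-EtOH received ethanol at 5% of the volume, which supplied 36% of calories. The ALKO groups were *Ahr* HKO mice, in which *Alb-Cre*, driven by the albumin promoter of hepatocytes, removes the second exon of floxed *Ahr*. Other liver cells keep the gene. The WT mice were littermates without Cre, so that all groups carried the floxed *Ahr* fl/fl alleles.

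Cytokines of the IL-6 family act through receptor pairs that share gp130, the product of *Il6st*. *Il6ra*, *Lifr* and *Osmr* encode the partners that bind or respond to IL-6, leukaemia inhibitory factor and oncostatin M. Ligand binding activates the Janus kinases on the receptor tails, which phosphorylate STAT3, and in hepatocytes STAT3 drives the acute phase proteins, often together with C/EBPβ and with signals from the IL-1 receptor *Il1r1*. SOCS3 is itself induced by STAT3 and blocks gp130 signalling. Phosphorylation of these proteins was not measured, and the values given are transcript levels only.

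On the control diet, 7 of the 10 genes were higher in *Ahr* HKO than in WT livers at an adjusted *P* under 0.05, against 15.3% of all tested genes, and edgeR called no member lower, against 14.4%. At an unadjusted *P* under 0.05, and with DESeq2, 1 member was lower, *Lifr*. The 7 genes were *Il6ra*, *Il6st*, *Osmr*, *Il1r1*, *Jak1*, *Stat3* and *Socs3*. In *Ahr* HKO livers, 6 of the 10 genes fell with the ethanol diet (*Il6st*, *Osmr*, *Il1r1*, *Jak1*, *Stat3* and *Socs3*), against 16.1% of all tested genes, and 15% of all tested genes rose. In WT livers *Lifr* was the member that fell with ethanol, against 4.48% of all tested genes, while 4.24% of all tested genes rose. On the ethanol diet *Il6ra* was the member that was higher in *Ahr* HKO livers, against 0.684% of all tested genes, and 0.378% of all tested genes were lower. The diet difference itself differed between genotypes for *Il6st*, *Osmr* and *Jak1*, which were more negative in *Ahr* HKO livers, as were 11.1% of all tested genes, and for *Lifr*, which was more positive, as were 11.2%. In liver tissue, fewer cells of a type and less RNA per cell cannot be told apart.

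The libraries held 46306518 to 74336255 reads counted on genes, so that the smallest level taken as detectable, 3 counts, was 0.0425 to 0.0676 CPM, where CPM are counts scaled to the size of the library. This limit covers counting error only. *Ahr* itself was read more in the livers labelled *Ahr* HKO than in WT on the control diet, at 56.7 ± 13.4 against 18.3 ± 1.79 CPM (SD, n = 3 each). Reads from outside the deleted exon enter this sum, so that it does not check the deletion, and the genotype is used here as labelled. *Cyp1a2*, a classical AhR target, was lower in the livers labelled *Ahr* HKO on both diets, with log2 fold changes (log2 FCs) of -1.67 (adjusted *P* = 0.0191) and -0.73 (adjusted *P* = 0.0457). Its mean on the control diet was 154 CPM in these livers, against 490.3 CPM in WT. *Cyp1a1*, another such target, was higher on the control diet, at 1.5 (adjusted *P* = 0.0458), but at low levels, 0.723 against 0.256 CPM. The first call was lost without WT control liver 1 or *Ahr* HKO control liver 2 (adjusted *P* 0.0585 to 0.0607), the second with the replicate number as a block, in a single fit of all 12 libraries and when any ethanol liver except WT ethanol liver 3 was left out (0.0577 to 0.196), and that of *Cyp1a1* in 8 of 14 other fits, among them those leaving out any control liver except *Ahr* HKO control liver 2 (0.052 to 0.132). The 8 hepatocyte markers summed to 76173 to 118288 CPM over the 12 livers, mostly through the albumin gene *Alb*, and each of them had reads in every group. Of the 8, 2 were higher in *Ahr* HKO livers on the control diet, against 15.3% of all tested genes, and 0 lower, against 14.4%. These were *Hnf4a* (log2 FC 0.97, adjusted *P* = 0.00313) and *Tat* (1.71, adjusted *P* = 0.0217). On the ethanol diet *Tat* was higher too (1.62, adjusted *P* = 0.0431). The *Tat* calls were lost in 4 and 7 of 14 other fits. Some livers stood apart from their group. WT ethanol liver 2 had 701 CPM summed over 12 Kupffer cell and leukocyte markers against 286 and 269.7 in the other livers of its group, and *Ahr* HKO control liver 1 had 789.9 CPM against 499.7 and 279. WT control liver 1 had 31.5 CPM of the acute phase gene *Saa1*, against 2571 and 2696 in the other 2 WT control livers.

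The promoters of the members were examined for 3 short motifs, because the pathway ends in STAT3 and C/EBPβ and the deleted gene encodes a DNA-binding receptor. The 250 bases before each transcript start of the RefSeq promoter set (GRCm38.p6) were searched on both strands for TTCNNNGAA, which STAT dimers bind, for GCGTG, the core of the AhR response element, and for the C/EBP form TTGCNNAA. Among 32851 promoters, 7.02% held the STAT letters, 28.2% the AhR core and 9.56% the C/EBP form, and the AhR core was in 42.3% of the promoters of tested genes. The 10 genes had 12 such promoters, with a pair each for *Il1r1* and *Lifr*. For *Il1r1*, *Lifr*, *Osmr*, *Jak1*, *Stat3* and *Socs3* these starts lie inside the span of the gene as given with its values. A STAT match was in 1 of the 12, that of *Socs3*, the AhR core was in 5 and the C/EBP form in 1. Of these windows, 5 are shown because they hold these matches in *Socs3*, in *Il1r1* and *Lifr*, whose levels are given further on, and in *Jak2*, which has the most AhR cores. Matches are in capitals, and bases that are annotated as exon are left out.
*Socs3*, chr11:117969452-117969616, minus strand: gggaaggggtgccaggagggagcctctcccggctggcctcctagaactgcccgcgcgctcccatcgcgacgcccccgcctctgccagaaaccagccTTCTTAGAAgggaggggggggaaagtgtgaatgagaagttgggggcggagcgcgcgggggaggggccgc
*Il1r1*, first start, chr1:40224830-40225079, plus strand: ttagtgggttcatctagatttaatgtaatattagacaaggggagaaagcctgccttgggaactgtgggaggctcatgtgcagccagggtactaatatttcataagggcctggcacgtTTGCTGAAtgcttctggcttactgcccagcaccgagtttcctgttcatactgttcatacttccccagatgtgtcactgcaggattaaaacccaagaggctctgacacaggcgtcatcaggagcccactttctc
*Il1r1*, second start, chr1:40266336-40266585, plus strand: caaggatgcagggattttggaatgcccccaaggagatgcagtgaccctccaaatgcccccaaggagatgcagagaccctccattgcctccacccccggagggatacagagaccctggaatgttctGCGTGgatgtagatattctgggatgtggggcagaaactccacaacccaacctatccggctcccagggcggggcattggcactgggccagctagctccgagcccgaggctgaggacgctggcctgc
*Lifr*, first start, chr15:7129322-7129558, plus strand: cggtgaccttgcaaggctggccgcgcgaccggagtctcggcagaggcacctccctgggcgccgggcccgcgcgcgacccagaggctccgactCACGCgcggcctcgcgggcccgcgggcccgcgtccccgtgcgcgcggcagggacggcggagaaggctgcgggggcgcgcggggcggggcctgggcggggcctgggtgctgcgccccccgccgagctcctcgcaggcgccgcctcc
*Jak2*, chr19:29251553-29251802, plus strand: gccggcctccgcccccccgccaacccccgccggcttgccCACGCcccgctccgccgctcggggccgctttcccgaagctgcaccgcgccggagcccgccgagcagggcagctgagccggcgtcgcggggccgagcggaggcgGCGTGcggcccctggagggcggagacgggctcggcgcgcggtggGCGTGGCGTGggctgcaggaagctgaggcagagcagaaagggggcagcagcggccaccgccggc

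The capitals in *Socs3* mark the STAT letters, which begin 154 bases before the start. In the first *Il1r1* window they mark the C/EBP form, 133 bases before the start, and in the second the AhR core, 125 bases before it. *Lifr* had 1 AhR core, 158 bases before its first start, and *Jak2* had 4, at 211, 108, 64 and 59 bases. *Jak1* and *Cebpb* also had an AhR core each, 71 and 10 bases before the start. The windows of *Il6ra*, *Il6st*, *Osmr* and *Stat3* and the second one of *Lifr* held none of the 3. A match is a run of letters and not a measured binding site, and a window without a match says only that these letters are not in it.

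Expressed per transcript length, the members spanned a wide range of levels in WT livers on the control diet. *Lifr* had the highest mean, at 53.5 ± 15 FPKM (SD, n = 3). *Il6st*, *Stat3* and *Jak1* followed at 25.2 ± 1.95, 25.1 ± 2.88 and 22.2 ± 1.25 FPKM, which lay within each other's spread. *Cebpb* (13.6 ± 18.5), *Il6ra* (11.0 ± 1.03), *Il1r1* (8.24 ± 2.04) and *Socs3* (7.66 ± 4.69) came next, with neighbours again within their spread, and *Jak2* (2.67 ± 0.198) and *Osmr* (0.781 ± 0.129 FPKM) were the lowest. In *Ahr* HKO livers on the control diet the order was different. *Cebpb* stood at 92.9 ± 42.2 FPKM, *Il6st* at 52.9 ± 2.25, *Il1r1* at 52.7 ± 4.98 and *Stat3* at 47.2 ± 8.18, above *Lifr* at 36.1 ± 10.4 and *Jak1* at 31.4 ± 2.26 FPKM. *Osmr* at 2.73 ± 0.692 and *Jak2* at 3.04 ± 0.570 FPKM were the lowest here too. Across all 12 livers the ratio of the highest to the lowest CPM was 1.65 for *Jak2* and 1.89 for *Jak1*, and it reached 11.5 for *Socs3*, 25.0 for *Il1r1* and 50.6 for *Cebpb*.

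**Figure D1:**
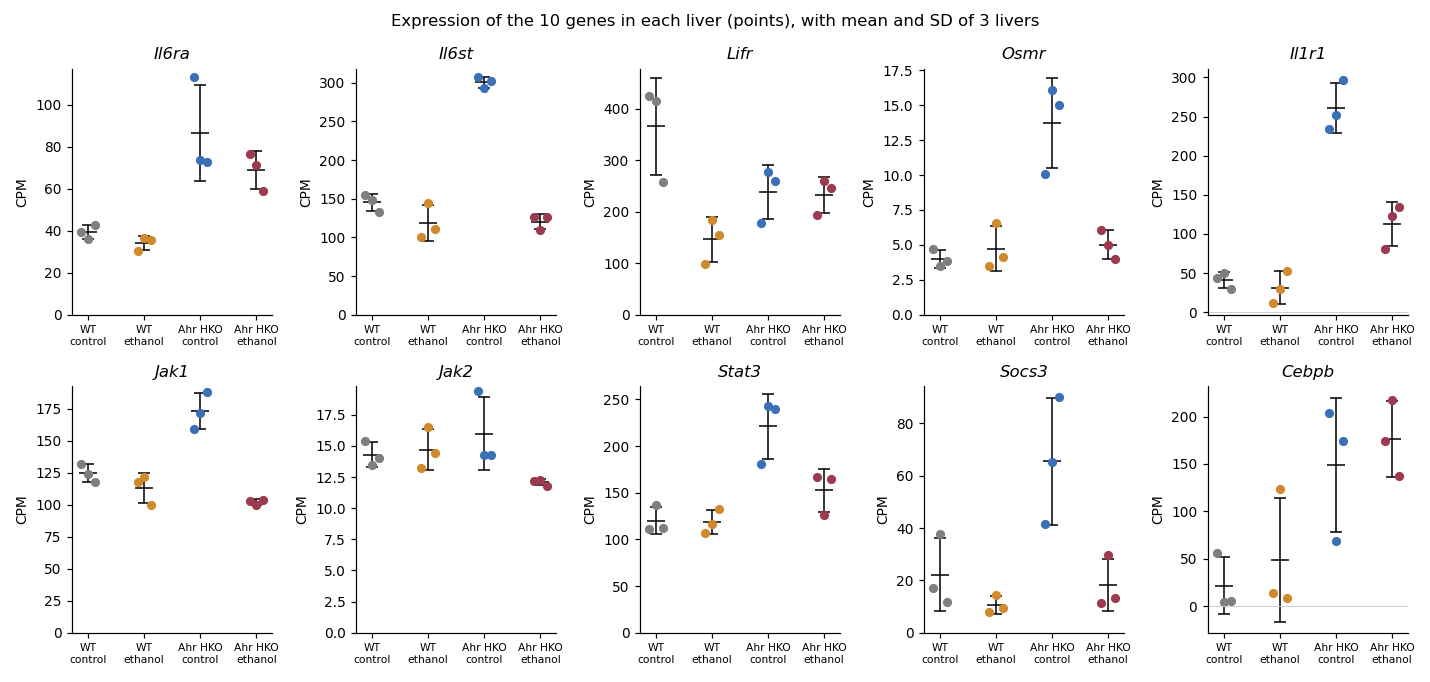
Level of each of the 10 genes in CPM (vertical axis) in WT and *Ahr* HKO livers on the control and ethanol diets. Each point is 1 liver, and the bars show the mean and SD of 3 livers. The 3 *Ahr* HKO control livers lie above the other 9 livers for *Il6st* (293 to 307 CPM), *Osmr* (10.1 to 16.1 CPM), *Il1r1* (234 to 297 CPM), *Jak1* (159.5 to 188 CPM), *Stat3* (181 to 243 CPM) and *Socs3* (41.4 to 90.0 CPM).

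*Il6ra* encodes the subunit that binds IL-6 (chr3:89869324-89913196, Entrez 16194). WT livers had 39.3, 35.9 and 42.5 CPM on the control diet and 30.5, 36.5 and 35.5 CPM on the ethanol diet. In *Ahr* HKO livers there were 113, 73.7 and 72.6 CPM on the control diet and 76.7, 71.3 and 58.8 CPM on the ethanol diet. Every *Ahr* HKO liver was thus above every WT liver, whereas the diets overlapped within each genotype. *Il6ra* was 2.20-fold higher in *Ahr* HKO than in WT livers on the control diet (log2 FC 1.14, SE 0.185, adjusted *P* = 0.00515) and 2.02-fold higher on the ethanol diet (log2 FC 1.01, SE 0.13, adjusted *P* = 0.0276). The call on the ethanol diet was lost when WT ethanol liver 1 or 2 or *Ahr* HKO ethanol liver 2 or 3 was left out, with log2 FCs of 0.94, 1.06, 0.99 and 1.11 and adjusted *P* values from 0.0764 to 0.0975, and it was lost with limma on log2(FPKM + 1), at 0.74 (adjusted *P* = 0.0544). With ethanol *Il6ra* had a log2 FC of -0.20 in WT (95% interval -0.45 to 0.06) and of -0.32 in *Ahr* HKO livers (-0.79 to 0.14), neither past the test.

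*Il6st* encodes gp130, the signalling subunit of the family (chr13:112464070-112506860, Entrez 16195). WT livers had 155, 148 and 133 CPM on the control diet and 101, 145 and 111 CPM on the ethanol diet. In *Ahr* HKO livers the values were 307, 293 and 302 CPM on the control diet and 126, 109 and 126 CPM on the ethanol diet. The 3 *Ahr* HKO control livers stood together far above all others, and the 2 ethanol groups overlapped. *Il6st* was 2.07-fold higher in *Ahr* HKO than in WT on the control diet (log2 FC 1.05, SE 0.104, adjusted *P* = 0.00114), and with ethanol it fell 2.50-fold in *Ahr* HKO livers (log2 FC -1.32, SE 0.108, adjusted *P* = 0.00134). The log2 FC with ethanol in WT was -0.29 (95% interval -0.64 to 0.06) and did not pass. The 2 diet differences differed by -1.03 (SE 0.186, adjusted *P* = 0.00373), and this held whichever of the 12 livers was left out (-1.14 to -0.86). On the ethanol diet the genotypes had a log2 FC of 0.02, with an interval of -0.34 to 0.38.

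*Lifr* encodes the receptor for leukaemia inhibitory factor, which pairs with gp130 (chr15:7090610-7197489, Entrez 16880). WT livers had 426, 415 and 258 CPM on the control diet and 99.3, 185 and 155 CPM on the ethanol diet. The *Ahr* HKO livers had 178, 277 and 259 CPM on the control diet and 194, 259 and 246 CPM on the ethanol diet. The WT diets did not overlap, while the *Ahr* HKO diets covered nearly the same range. With ethanol *Lifr* fell 2.50-fold in WT livers (log2 FC -1.32, SE 0.274, adjusted *P* = 0.0296). The call was lost without WT control liver 1 (-1.20, adjusted *P* = 0.0989) or 2 (-1.22, adjusted *P* = 0.0971) or WT ethanol liver 3 (-1.36, adjusted *P* = 0.0700), and with the replicate number as a block (-1.33, adjusted *P* = 0.0625). In *Ahr* HKO livers the log2 FC was -0.03, with an interval of -0.49 to 0.43. The diet difference was higher by 1.29 (SE 0.367, adjusted *P* = 0.0282) in *Ahr* HKO than in WT livers. That call was lost with limma on log2(FPKM + 1) (1.12) and when any of 5 livers was left out, with values of 1.12 to 1.25 and adjusted *P* values of 0.0580 to 0.0663; these were WT control livers 1 and 2, *Ahr* HKO control liver 1 and *Ahr* HKO ethanol livers 2 and 3. Between genotypes *Lifr* did not pass on the control diet (log2 FC -0.62, adjusted *P* = 0.0912), although it did without WT control liver 3 (-0.82, adjusted *P* = 0.0393) and with DESeq2 (adjusted *P* = 0.0316), nor on the ethanol diet (0.67, adjusted *P* = 0.17).

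*Osmr* encodes the oncostatin M receptor, the other main partner of gp130 (chr15:6813568-6874968, Entrez 18414), and was the least expressed of the receptors. WT livers had 4.71, 3.46 and 3.84 CPM on the control diet and 3.49, 6.58 and 4.14 CPM on the ethanol diet, from 185 to 414 reads per liver. In *Ahr* HKO mice the levels were 10.1, 16.1 and 15 CPM on the control diet and 6.04, 5.02 and 3.97 CPM on the ethanol diet. As with *Il6st*, the *Ahr* HKO control livers were the high ones and the 3 other groups overlapped. *Osmr* was 3.43-fold higher in *Ahr* HKO than in WT on the control diet (log2 FC 1.78, SE 0.212, adjusted *P* = 0.00185) and fell 2.73-fold with ethanol in *Ahr* HKO livers (log2 FC -1.45, SE 0.227, adjusted *P* = 0.00539). The log2 FC with ethanol in WT was 0.24 (95% interval -0.37 to 0.86), and the 2 diet differences differed by -1.70 (SE 0.367, adjusted *P* = 0.00872), which held without any of the 12 livers (-1.88 to -1.38).

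*Il1r1* encodes the receptor that transmits IL-1 signals, which act on the acute phase response beside IL-6 (chr1:40222480-40316201, Entrez 16177). WT livers had 43.6, 50.8 and 30.0 CPM on the control diet and 11.9, 30.1 and 52.9 CPM on the ethanol diet. Livers of *Ahr* HKO mice had 234, 252 and 297 CPM on the control diet and 81.1, 123 and 135 CPM on the ethanol diet. All 6 *Ahr* HKO livers were above all 6 WT livers, and within the *Ahr* HKO group the diets were apart too. The difference on the control diet was the largest called among the members, 6.29-fold (log2 FC 2.65, SE 0.211, adjusted *P* = 0.000889). With ethanol *Il1r1* fell 2.31-fold in *Ahr* HKO livers (log2 FC -1.21, SE 0.205, adjusted *P* = 0.00665), and both calls held without any 1 liver. On the ethanol diet the genotypes differed by 1.83 (95% interval 0.68 to 2.99), which did not pass (adjusted *P* = 0.113) but did with DESeq2 (adjusted *P* = 0.00141), in a single fit of all 12 libraries (adjusted *P* = 0.0381) and with the replicate number as a block (2.04, adjusted *P* = 0.0369). The WT ethanol livers spread widely, with an SD of 20.6 around a mean of 31.6 CPM. The log2 FC with ethanol in WT was -0.39 (-1.50 to 0.72), and the 2 diet differences differed by -0.82 (adjusted *P* = 0.334), or by -1.21 (adjusted *P* = 0.049) without WT ethanol liver 1.

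*Jak1* encodes the main kinase on gp130 (chr4:101151974-101265282, Entrez 16451). WT livers had 132, 124 and 118 CPM on the control diet and 118, 122 and 100.1 CPM on the ethanol diet. *Ahr* HKO livers had 159.5, 172 and 188 CPM on the control diet and 103, 99.6 and 104 CPM on the ethanol diet. The differences were small beside those of the receptors, but the livers within a group lay close together. *Jak1* was 1.39-fold higher in *Ahr* HKO than in WT on the control diet (log2 FC 0.48, SE 0.105, adjusted *P* = 0.0147), a call that was lost without WT control liver 2 (0.47, adjusted *P* = 0.058) or 3 (0.44, adjusted *P* = 0.0588) and with the replicate number as a block (0.47, adjusted *P* = 0.0595). With ethanol it fell 1.69-fold in *Ahr* HKO livers (log2 FC -0.76, SE 0.104, adjusted *P* = 0.00365), against a log2 FC of -0.13 in WT (95% interval -0.39 to 0.12). The 2 diet differences differed by -0.63 (SE 0.142, adjusted *P* = 0.0108), without any of the 12 livers as well (-0.71 to -0.56).

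*Jak2*, the second kinase, associates with gp130 and with several hormone receptors (chr19:29251803-29313095, Entrez 16452). WT livers had 15.4, 13.5 and 14.0 CPM on the control diet and 13.2, 16.5 and 14.4 CPM on the ethanol diet. In *Ahr* HKO livers there were 19.4, 14.3 and 14.3 CPM on the control diet and 12.2, 12.3 and 11.8 CPM on the ethanol diet. The *Ahr* HKO ethanol livers were the lowest of the 12, by a small margin, and *Jak2* passed the test in no comparison. Its log2 FCs were 0.04 with ethanol in WT (95% interval -0.24 to 0.31), -0.40 with ethanol in *Ahr* HKO livers (-0.74 to -0.06, adjusted *P* = 0.0705), 0.16 between genotypes on the control diet (-0.17 to 0.49) and -0.28 on the ethanol diet (-0.55 to -0.01, adjusted *P* = 0.228). With all 12 libraries in a single fit, the -0.40 in *Ahr* HKO livers passed (adjusted *P* = 0.0339).

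*Stat3* encodes the transcription factor of the pathway (chr11:100886806-100939594, Entrez 20848). WT livers had 111, 137 and 112 CPM on the control diet and 107, 116 and 133 CPM on the ethanol diet. The *Ahr* HKO livers had 181, 243 and 239.9 CPM on the control diet and 167, 126 and 165 CPM on the ethanol diet. The *Ahr* HKO control livers were the highest, the *Ahr* HKO ethanol livers lay between them and the WT livers with an overlap with WT, and the WT diets covered nearly the same range. *Stat3* was 1.85-fold higher in *Ahr* HKO than in WT on the control diet (log2 FC 0.88, SE 0.154, adjusted *P* = 0.00639), and this held without any 1 liver (0.81 to 1.01). With ethanol it fell 1.45-fold in *Ahr* HKO livers (log2 FC -0.53, SE 0.168), at an adjusted *P* of 0.048, close to the threshold. That call was lost when *Ahr* HKO control liver 2 or 3 or any of the 3 *Ahr* HKO ethanol livers was left out (log2 FC -0.60 to -0.41, adjusted *P* 0.0706 to 0.129), with no filter on low counts (adjusted *P* = 0.0542) and with the replicate number as a block (adjusted *P* = 0.104). In WT livers the log2 FC with ethanol was -0.01 (95% interval -0.31 to 0.29), and the 2 diet differences differed by -0.52 (-1.0 to -0.04, adjusted *P* = 0.11), or by -0.74 (adjusted *P* = 0.0291) with limma on log2(FPKM + 1). On the ethanol diet the genotypes had a log2 FC of 0.36 (0.02 to 0.70, adjusted *P* = 0.216).

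*Socs3* encodes the feedback inhibitor that STAT3 induces (chr11:117966079-117970336, Entrez 12702), and its promoter window is the one with the STAT letters. WT livers had 17.0, 37.9 and 11.7 CPM on the control diet and 7.82, 14.3 and 9.47 CPM on the ethanol diet. In *Ahr* HKO mice the levels were 41.4, 65.1 and 90.0 CPM on the control diet and 11.5, 29.6 and 13.4 CPM on the ethanol diet. The *Ahr* HKO control livers were again above all others, although WT control liver 2, at 37.9 CPM, came close to the lowest of them. *Socs3* was 2.94-fold higher in *Ahr* HKO than in WT on the control diet (log2 FC 1.56, SE 0.458, adjusted *P* = 0.0396). The call was lost without WT control liver 1 (1.40, adjusted *P* = 0.121) or 3 (1.25, adjusted *P* = 0.0927) or *Ahr* HKO control liver 2 (1.56, adjusted *P* = 0.0818) or 3 (1.26, adjusted *P* = 0.0952). With ethanol *Socs3* fell 3.60-fold in *Ahr* HKO livers (log2 FC -1.85, SE 0.421, adjusted *P* = 0.0169), the largest fall among the members there, which was lost without *Ahr* HKO ethanol liver 3 (-1.67, adjusted *P* = 0.0605). In WT livers the log2 FC with ethanol was -1.08 (95% interval -2.09 to -0.06, adjusted *P* = 0.17), and the groups overlapped, since WT control liver 3 was below WT ethanol liver 2. The 2 diet differences of *Socs3* differed by -0.77 (-2.24 to 0.69, adjusted *P* = 0.437), and on the ethanol diet the genotypes differed by 0.79 (-0.13 to 1.70, adjusted *P* = 0.299).

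*Cebpb* encodes C/EBPβ, a partner of STAT3 at acute phase genes (chr2:167688915-167690432, Entrez 12608), and varied most between livers. WT livers had 56.0, 4.28 and 5.01 CPM on the control diet and 14.0, 124 and 8.84 CPM on the ethanol diet. Livers of *Ahr* HKO mice had 204, 69.1 and 174 CPM on the control diet and 174, 217 and 137 CPM on the ethanol diet. In each WT group 1 liver was far above the other 2, and these were WT control liver 1, the liver with little *Saa1*, and WT ethanol liver 2, the liver of its group with the most Kupffer cell and leukocyte marker reads. On each diet the *Ahr* HKO livers were above the WT livers of that diet, but no *Cebpb* difference passed the test. The log2 FC between genotypes was 2.78 on the control diet (95% interval 0.39 to 5.17, adjusted *P* = 0.0789) and 1.85 on the ethanol diet (-0.32 to 4.02, adjusted *P* = 0.3). These became 5.0 (adjusted *P* = 0.00693) without WT control liver 1 and 3.95 (adjusted *P* = 0.0265) without WT ethanol liver 2. On the control diet the difference also passed with limma on log2(FPKM + 1), with quantile normalization (3.44, adjusted *P* = 0.0308) or without it (3.41, adjusted *P* = 0.0302), and with the replicate number as a block (3.67, adjusted *P* = 0.0192). With ethanol the log2 FC was 1.17 in WT (-1.79 to 4.13), which turned to -0.93 without WT ethanol liver 2, and 0.24 in *Ahr* HKO livers (-0.65 to 1.13), which turned to -0.10 without *Ahr* HKO control liver 2. Of the exon bases of *Cebpb*, 20.7% are shared with exons of *Tmem189* on the other strand, whose level was 16.4 to 25.5 CPM over the 12 livers. The libraries were stranded, but whether the counting used strand is not given in the sources used here. For *Il6ra*, *Stat3* and *Jak1* the shared bases came to 2.8%, 0.756% and 0.0553% of the exon bases, and the other 6 genes shared none.

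**Figure D2:**
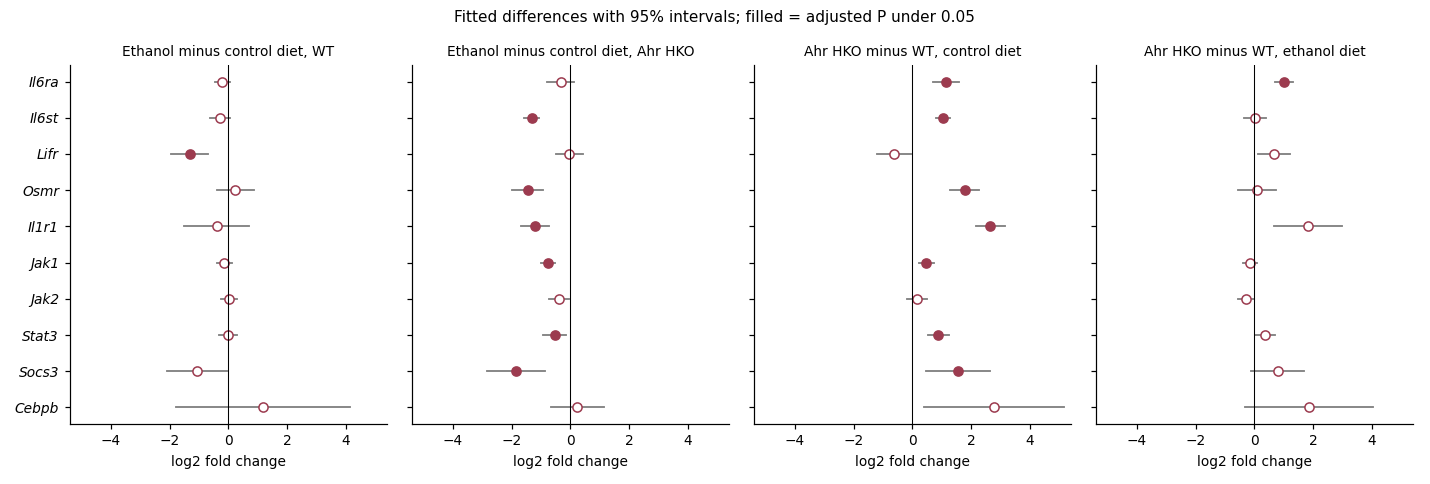
Log2 fold changes (horizontal axis) of the 10 genes in the 4 comparisons of pairs of groups, as fitted with edgeR, with 95% intervals as lines. Filled points have an adjusted *P* under 0.05. On the control diet between genotypes, from 0.48 for *Jak1* to 2.65 for *Il1r1*, 7 points are filled, and 6 for ethanol in *Ahr* HKO livers, from -0.53 for *Stat3* to -1.85 for *Socs3*, against 1 in each of the other 2 comparisons.

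The comparison of genotypes on the control diet had a median log2 FC of 1.09 over the 10 genes, beside 0.00 over all tested genes, and 9 of the 10 were positive, beside 49.7% of all tested genes. The 2 groups did not overlap for 8 members, all of them higher in *Ahr* HKO livers, whereas they did not overlap for 47.3% of all tested genes. Of the 7 called members, 6 had a fold above 1.5, and *Jak1* was the exception. *Lifr* was the member with a negative value.

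Ethanol in *Ahr* HKO livers gave a median log2 FC of -0.65 over the members, beside -0.02 over all tested genes. Here 7 members had groups that did not overlap, all lower with ethanol, against 49.8% of all tested genes, and 5 of the 6 called members had a fold above 1.5, *Stat3* being the other. *Cebpb* was the member with a positive value. This comparison and that of genotypes on the control diet share the 3 *Ahr* HKO control livers, so that a high level in those livers enters both with opposite signs.

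Ethanol in WT livers gave a median of -0.17 over the members, beside 0.01 over all tested genes. The groups did not overlap for 1 member, *Lifr*, against 32.9% of all tested genes. On the ethanol diet the genotypes gave a median of 0.52, beside -0.01, and their groups did not overlap for 5 members, against 27.9% of all tested genes. *Il6ra*, *Lifr*, *Il1r1* and *Cebpb* were the 4 that were higher in *Ahr* HKO livers and *Jak2* the 1 that was lower. Across members, the median difference between the 2 diet differences was -0.70, beside -0.03 over all tested genes.

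The ligands of the family were scarce in these livers. Among the ligand genes, *Il6*, *Il11*, *Lif*, *Osm* and *Il27* had too few reads to be tested, with at most 10, 6, 17, 12 and 19 reads in any liver. *Il6*, the ligand of *Il6ra*, had a read in 2 of 12 livers. Among the 7 tested ligands, *Il1b*, which encodes IL-1β, and *Il1rn*, which encodes the antagonist of *Il1r1*, were higher in *Ahr* HKO than in WT livers on the control diet (log2 FC 1.33 and 1.55) and fell with ethanol in *Ahr* HKO livers (-1.69 and -2.60). *Ctf1*, which encodes cardiotrophin 1, a ligand of *Lifr* and gp130, went the other way (-1.17 and 1.35). *Cntf*, which encodes ciliary neurotrophic factor, rose with ethanol in *Ahr* HKO livers (1.40), a call lost in 8 of 14 other fits, among them those leaving out any of these 6 livers except *Ahr* HKO control liver 1. The fall of *Il1b* was lost with the replicate number as a block and without *Ahr* HKO control liver 1 or 2 or *Ahr* HKO ethanol liver 1 or 2 (adjusted *P* 0.0621 to 0.0975). The control diet differences of *Il1b* and *Il1rn* were lost in the single fit of all 12 libraries (adjusted *P* = 0.057 and 0.0653), and that of *Il1rn* with the block too (0.0503). The means behind *Il1b* were 1.67 ± 0.289 CPM in WT control, 4.21 ± 0.817 CPM in *Ahr* HKO control and 1.33 ± 0.946 CPM in *Ahr* HKO ethanol livers (SD, n = 3 each).

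Of 8 further receptor genes, 7 were tested, and *Il1rl1* had too few reads. *Lepr*, the leptin receptor, which resembles gp130 and also signals through STAT3, had 3.43, 3.41 and 2.39 CPM in WT control livers, 41.8, 52.9 and 53.8 CPM in WT ethanol livers, 10.7, 9.57 and 37.0 CPM in *Ahr* HKO control livers and 4.52, 13.3 and 5.84 CPM in *Ahr* HKO ethanol livers. It rose with ethanol in WT livers (log2 FC 4.01, adjusted *P* = 0.000222), its log2 FC in *Ahr* HKO livers was -1.27 (adjusted *P* = 0.155), and the difference of these was -5.28 (adjusted *P* = 0.00117). *Il11ra1*, the receptor for IL-11, was lower in *Ahr* HKO livers on the control diet (-0.37), which was lost without WT control liver 1 or 3 or *Ahr* HKO control liver 2 or 3 (adjusted *P* 0.0576 to 0.111), and rose with ethanol in them (0.76). *Il1rap*, the partner of *Il1r1*, rose with ethanol in *Ahr* HKO livers (0.64), a call lost with the replicate number as a block and without *Ahr* HKO control liver 1 or 2 or *Ahr* HKO ethanol liver 2 (adjusted *P* 0.0508 to 0.0592). *Il1r2*, which encodes a decoy receptor for IL-1, was called higher in *Ahr* HKO livers on the control diet from very few reads, with 0, 4 and 0 in the WT and 43, 25 and 36 in the *Ahr* HKO livers, and no fold is given.

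Among 12 other kinases, STATs and adaptors, 3 were higher and 3 lower in *Ahr* HKO livers on the control diet (15.3% and 14.4% of all tested genes), and 1 rose and 4 fell with ethanol in *Ahr* HKO livers (15% and 16.1%). Without WT control liver 1 the 3 higher became 1. *Grb2*, an adaptor that links gp130 to the MAP kinase pathway, was higher on the control diet (log2 FC 0.76) and fell with ethanol in *Ahr* HKO livers (-0.62). *Gab1*, a docking protein of the same branch, did the reverse (-0.82 and 0.58). *Tyk2*, another Janus kinase used by gp130, was lower in *Ahr* HKO livers on the control diet (-0.65) and fell with ethanol in WT livers (-0.39), a call lost whichever of the 6 livers was left out and in 4 other fits (adjusted *P* 0.0503 to 0.175). *Jak3*, the kinase of leukocyte cytokine receptors, fell with ethanol in *Ahr* HKO livers (-1.19).

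Of 16 other negative regulators, 3 were higher and 1 lower in *Ahr* HKO livers on the control diet (15.3% and 14.4% of all tested genes), and 4 fell with ethanol in *Ahr* HKO livers (16.1%). The 4 became 2 with the replicate number as a block or without *Ahr* HKO ethanol liver 3, and 6 with DESeq2. *Ptpn1*, a phosphatase that acts on Janus kinases, had a mean of 28.2 ± 1.66 CPM in WT control, 29.9 ± 4.99 CPM in WT ethanol, 108 ± 21.8 CPM in *Ahr* HKO control and 26.4 ± 1.67 CPM in *Ahr* HKO ethanol livers (SD, n = 3 each). It was higher in *Ahr* HKO livers on the control diet (log2 FC 1.94, adjusted *P* = 0.000908), fell with ethanol in them (-2.04, adjusted *P* = 0.00134), and its 2 diet differences differed by -2.12 (adjusted *P* = 0.000314). *Socs2*, an inhibitor of growth hormone signalling, fell with ethanol in *Ahr* HKO livers (-2.89). *Pias3*, an inhibitor of STAT3 itself, fell with ethanol in WT livers (-1.06) and was lower in *Ahr* HKO than in WT livers on the control diet (-0.75). The latter was lost with limma on log2(FPKM + 1) and when any control liver except *Ahr* HKO control liver 2 was left out (adjusted *P* 0.062 to 0.118). *Adam17*, the protease that sheds the IL-6 receptor, was higher in *Ahr* HKO livers on the control diet (0.58), a call lost in the single fit of all 12 libraries (adjusted *P* = 0.111).

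Of 6 further genes listed by the C/EBP name or family, 4 were higher and 1 lower in *Ahr* HKO livers on the control diet (15.3% and 14.4% of all tested genes). *Cebpd*, which encodes another C/EBP factor of the acute phase response, was among those higher (log2 FC 1.48, adjusted *P* = 0.00386), as were *Cebpg* (0.60) and *Cebpz* (0.85). *Cebpe* was lower there (-1.09) and rose with ethanol in both genotypes, by 1.09 in WT and 2.06 in *Ahr* HKO livers.

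The list of 28 known STAT3 target genes, most of them acute phase genes of hepatocytes, also differed between groups. With ethanol 23 of the 28 fell in *Ahr* HKO livers, against 16.1% of all tested genes. The median log2 FC was -2.06 beside -0.02 over all tested genes, and 20 to 22 fell when any 1 liver was left out. On the control diet 12 of the 28 were higher in *Ahr* HKO livers, against 15.3% of all tested genes, with a median of 1.03 beside 0.00. None was called lower by edgeR, against 14.4% (1 lower at an unadjusted *P* under 0.05, and 0 with DESeq2). With the replicate number as a block, or without WT control liver 1, edgeR called 1 lower. Leaving out a liver gave 9 to 13 higher. In WT livers edgeR called none of the 28 with ethanol, beside 4.24% of all tested genes higher and 4.48% lower. The median was -0.60, although 3 were higher and 9 lower at an unadjusted *P* under 0.05 and DESeq2 called 3 higher and 7 lower. With the block edgeR called 1 higher, without WT control liver 1 it called 2 lower, and limma on log2(FPKM + 1) called 2 higher. On the ethanol diet edgeR called none between genotypes, beside 0.684% of all tested genes higher and 0.378% lower. The median was -0.05 (1 higher and 6 lower at an unadjusted *P* under 0.05, and 6 lower with DESeq2). With the block edgeR called 1 higher and 3 lower. Without WT ethanol liver 3, and with limma on log2(FPKM + 1), 1 was lower. The 2 diet differences differed for 10 of the 28, all more negative in *Ahr* HKO livers, as were 11.1% of all tested genes. The 10 became 7 to 11 with a liver left out, 9 with the block, and 14 or 15 with limma, without or with quantile normalization.

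Among the targets *Saa1* and *Saa2*, which encode serum amyloid A, fell with ethanol in *Ahr* HKO livers, with log2 FCs of -5.38 and -7.24 (adjusted *P* = 0.000849 for both). *Saa1* had 3065, 1772 and 3254 CPM in *Ahr* HKO control livers and 54.2, 62.1 and 77.6 CPM in *Ahr* HKO ethanol livers. Its WT control livers split, at 31.5, 2571 and 2696 CPM, and the WT ethanol livers had 82.3, 53.8 and 31.8 CPM, so that the WT log2 FC of -4.98 did not pass (adjusted *P* = 0.0647). *Saa1* and *Saa2* are near-identical genes whose reads the counting could split between them. *Serpina3n*, which encodes an acute phase protease inhibitor, had means of 641 ± 181, 639 ± 212, 6515 ± 1447 and 576 ± 69.5 CPM in WT control, WT ethanol, *Ahr* HKO control and *Ahr* HKO ethanol livers (SD, n = 3 each). The *Ahr* HKO control group was the high one, as for *Il6st*, *Osmr* and *Ptpn1*, and its 2 diet differences differed by -3.50 (adjusted *P* = 0.000369). *Lcn2*, which encodes lipocalin 2, fell with ethanol in *Ahr* HKO livers, with a log2 FC of -6.08 (adjusted *P* = 0.00136).

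**Figure D3:**
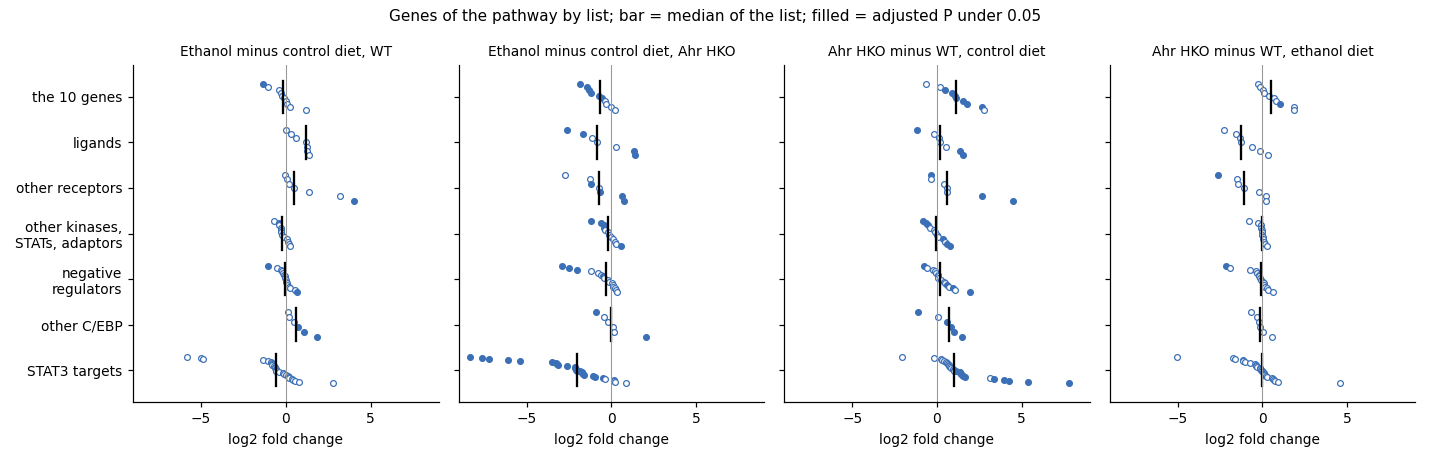
Log2 fold changes (horizontal axis) of the tested genes of each list, 1 point per gene, in the 4 comparisons of pairs of groups. Filled points have an adjusted *P* under 0.05 in edgeR and the bar is the median of the list. For the STAT3 targets 23 points are filled on the left for ethanol in *Ahr* HKO livers (median -2.06), against 16.1% of all tested genes. On the right 12 are filled for genotype on the control diet (median 1.03), against 15.3%.

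Markers of other liver cells moved in the same comparisons. Of 12 Kupffer cell and leukocyte markers, 10 fell with ethanol in *Ahr* HKO livers, against 16.1% of all tested genes, and 6 did with the replicate number as a block and 7 without *Ahr* HKO ethanol liver 1. Their summed level was 279 to 789.9 CPM on the control diet and 165 to 207 CPM on the ethanol diet. In WT livers it was 302 to 394 CPM on the control diet and 269.7 to 701 CPM on the ethanol diet. Of 8 sinusoidal endothelial markers, 3 fell with ethanol in *Ahr* HKO livers, against 16.1% of all tested genes. The 3 became 5 with limma and 2 without *Ahr* HKO ethanol liver 2. Their sums were 297 to 315 CPM on the control diet against 209.9 to 234 CPM on the ethanol diet. The 8 stellate cell and fibroblast markers summed to 218 to 235 CPM against 239 to 280.1 CPM. No marker of these lists was at 0 throughout a group. On the control diet 3 of the 12 Kupffer cell and leukocyte markers were higher and 1 was lower in *Ahr* HKO livers, beside 15.3% and 14.4% of all tested genes. Without *Ahr* HKO control liver 3 the 3 became 8, and the 1 became 0 when any control liver except *Ahr* HKO control liver 2 was left out. The diet difference was more negative in *Ahr* HKO livers for 8 of the 12, against 11.1% of all tested genes, and for 4 to 9 with a liver left out. Between genotypes on the ethanol diet edgeR called none of the 12. All 12 had a negative log2 FC there, with a median of -1.17 beside -0.01, and DESeq2 called 7 lower. Without WT ethanol liver 3 edgeR called 1 lower. Among the *Ahr* HKO control livers, *Il6ra*, *Il6st*, *Jak2* and *Cebpb* were highest in liver 1, where the Kupffer cell and leukocyte markers summed to 789.9 CPM, *Lifr*, *Osmr* and *Stat3* in liver 2 (499.7 CPM) and *Il1r1*, *Jak1* and *Socs3* in liver 3 (279 CPM, below each WT control liver). The summed bile duct markers ranged from 59.1 to 513 CPM in the *Ahr* HKO control livers, mostly through *Spp1*, which alone ranged from 35 to 462 CPM. Without *Ahr* HKO control liver 1, *Il6st*, *Osmr*, *Il1r1*, *Jak1*, *Stat3* and *Socs3* were called lower with ethanol in *Ahr* HKO livers. The control livers left in this fit had Kupffer cell and leukocyte sums of 499.7 and 279 CPM, above the 165 to 207 CPM of the ethanol livers. The marker difference thus remains in this fit, which cannot separate it from the differences of the members. The part of these cells in the differences of the members was not tested.

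**Figure D4:**
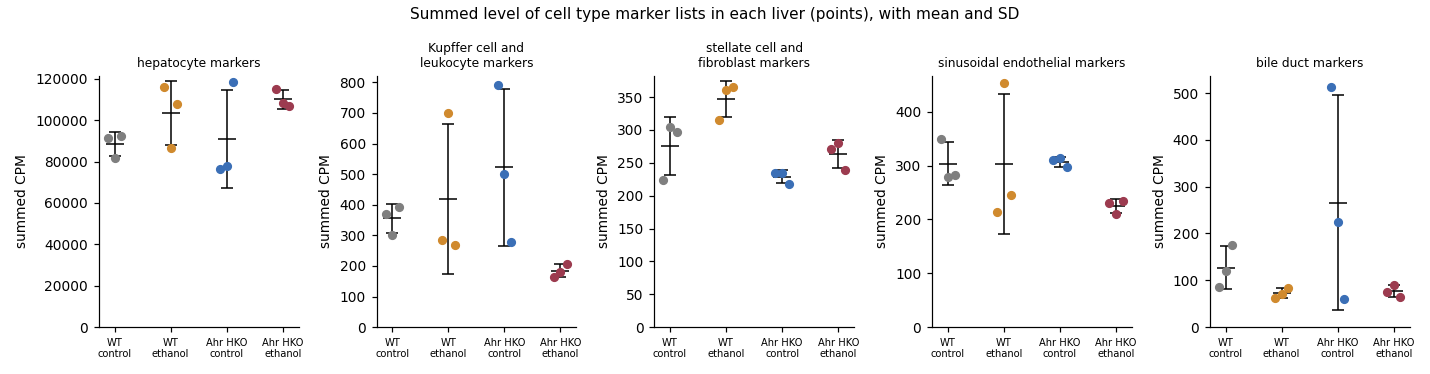
Summed level of 5 lists of cell type markers in CPM (vertical axis) in WT and *Ahr* HKO livers on the control and ethanol diets. Each point is 1 liver, and the bars show the mean and SD of 3 livers. The Kupffer cell and leukocyte sum is lowest in the *Ahr* HKO ethanol livers, at 165 to 207 CPM, and single livers stand out at 701 CPM (WT ethanol) and 789.9 CPM (*Ahr* HKO control).

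Over the 12 livers, the genes whose log2 CPM were most like those of *Stat3* included *Nf1* and *Zmym1*, with Pearson's *r* of 0.967 and 0.937. For *Socs3* they were *Mphosph8*, *Prrc1* and *Sec24c* (0.950, 0.945 and 0.939), and for *Il6ra* they were *Smg1*, *Hist1h2bk* and *Hist1h2bl* (0.951, 0.947 and 0.943), the last pair being histone genes with near-identical copies. Among the members, *Il6st* and *Jak1* had the highest *r*, 0.935, and *Il6st* and *Osmr* had 0.889. *Jak2* and *Stat3* had 0.047, and *Lifr* had 0.067 with *Osmr* and 0.134 with *Stat3*. These values describe 12 livers in 4 groups, which share library and group differences.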

How the data were processed

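RNA-seq of 12 mouse livers was analysed, in 4 groups of 3 formed from the sample labels, which name no batch. The libraries came from a stranded mRNA kit. The submitters' processing notes name FastQC 0.11.7, Trimmomatic 0.38, HISAT2 2.1.0, Bowtie2 2.3.4.1, StringTie 1.3.4d and the mouse build mm10, which is GRCm38. The authors deposited raw read counts per gene for each liver, which carry no normalization. The deposited FPKM values are the authors' scaling of these to transcript length and library size, and served for levels between genes. The authors also deposited TPM values, which entered no result. The study tested log2 FPKM values after quantile normalization, and limma on such values is given here as an alternative.

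Counts were tested with edgeR 4.0.16 in R 4.3.3 (glmQLFit and glmQLFTest), after filterByExpr over the 4 groups, which kept 14038 genes, and TMM scaling. Each pair of groups was fitted alone with its 6 libraries, and the difference between diet differences with all 12. *P* values were adjusted with Benjamini-Hochberg over all tested genes and called under 0.05. CPM are scaled by the TMM factors (0.925 to 1.16). Standard errors and 95% intervals come from the quasi-likelihood *F* statistic. The fits were tested on simulated data, which used the same variability between livers for every gene. Changes of 1.5-fold were recovered for 16.4 to 23.9% of changed genes in pair comparisons. For the difference between diet differences this was 3.0%. Changes of 2-fold were recovered for 85.1 to 91.0% and 46.3%. A difference that did not pass is thus not shown to be absent. Between replicates the chi-square per gene was 68 to 310 over 12317 genes, so that no 2 libraries of a group agreed within sampling noise. The *P* values set each difference against the variation between these livers, as estimated with information shared across genes.

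The alternatives were DESeq2 1.42.0, upper-quartile scaling, no filter on low counts, at least 10 counts in every library, limma 3.58.1 on log2(FPKM + 1), as deposited or after quantile normalization, the replicate number as a block, all 12 libraries in a single fit, and leaving out each liver. The 10 genes, the other gene lists and the cell markers were chosen with earlier results of these data known. All 10 members are given in full. Of each further pathway list, at most 4 genes with the smallest adjusted *P* among those called are named. *Ahr*, *Cyp1a1* and *Cyp1a2* were chosen to check the genotype, but they did not settle it, and it is used as labelled. *Raver2*, *Stat5a*, *Tmem189* and other neighbours were looked up for shared exon bases in GENCODE M21. For *Stat3*, *Socs3* and *Il6ra* the 3 genes with the highest Pearson's *r* of log2 CPM were taken. Single genes of the ligand list and of these are not reported here. Promoter sequences are from RefSeq, and protein sequences were not analysed here.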

Additional observations from a re-analysis of the deposited data

Results flagged for a closer look

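Of the 10 genes, 4 are listed because the test of the difference between the 2 genotypes' diet effects (edgeR, all 12 libraries) passed for them. The ethanol effect was more negative in *Ahr* HKO than in WT livers for *Il6st* (difference of log2 FCs -1.03), *Osmr* (-1.70) and *Jak1* (-0.63). It was more positive for *Lifr* (1.29). For *Il6st*, *Osmr* and *Jak1* the 3 *Ahr* HKO control livers were above the other 9 livers, and for *Lifr* the WT diets did not overlap while the *Ahr* HKO diets did. Among all tested genes 11.2% were called in the positive and 11.1% in the negative direction.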

How the results depend on the processing

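Under each alternative, the counts of called members over both directions together stayed within 1.5-fold of the report in some comparisons. These were ethanol in *Ahr* HKO livers, genotype on the control diet and the difference between diet effects. By direction the counts moved more. For ethanol in *Ahr* HKO livers the 6 lower became 5 with the replicate block and 4 without *Ahr* HKO ethanol liver 3. For genotype on the control diet the 7 higher became 8 with either limma fit and 5 without WT control liver 3. For the difference between diet effects the 3 more negative became 4 with limma on log2(FPKM + 1) and without WT ethanol liver 1. *Lifr* was called lower on the control diet with DESeq2 and without WT control liver 3 (0 became 1). It was no longer more positive in the difference between diet effects with limma on log2(FPKM + 1) and when any of 5 livers was left out (1 became 0). For ethanol in WT livers the count of 1 became 0 with the replicate block, and 0 to 1 when a liver was left out. For genotype on the ethanol diet the count of 1 became 2 with DESeq2, with the replicate block and with all 12 libraries in a single fit, 0 with limma on log2(FPKM + 1), and 0 to 1 when a liver was left out. The labels number the livers but state no pairing by these numbers. The correlation of deviations of same-numbered livers was -0.088 to 0.178. It passed 0.1 in 2 of 3 pairs of 1 comparison and in none of the other comparisons. With 3 livers in a group it cannot show whether livers were paired. Of 360 member values with a liver left out, 310 kept direction and call, and of 389 under the other alternatives, 368 did. The member values that changed sign were all uncalled. They were, with the range over left-out livers in parentheses, for ethanol in WT, *Osmr* -0.07 (-0.07 and 0.42), *Il1r1* 0.00 (-0.98 and 0.00), *Jak1* 0.03 (limma on log2(FPKM + 1)), *Jak2* 0.00 and -0.05 (-0.05 and 0.11), *Stat3* 0.15 (the same limma fit), 0.10, 0.06 and 0.01 (-0.10 and 0.10), and *Cebpb* -0.93 (-0.93 and 3.39); for ethanol in *Ahr* HKO, *Lifr* 0.10, 0.04 and 0.09 (-0.20 and 0.10), and *Cebpb* -0.10 (-0.10 and 0.54); for genotype on the control diet, *Jak2* 0.00 (0.00 and 0.24); for genotype on the ethanol diet, *Il6st* -0.03 (upper-quartile scaling), -0.01 and -0.18 (limma with and without quantile normalization), and -0.09, -0.03, -0.01 and -0.02 (-0.09 and 0.18), and *Osmr* -0.06 (limma on log2(FPKM + 1)), -0.10, -0.01 and -0.08 (-0.10 and 0.39); and for the difference of diet effects, *Il6ra* 0.11 (-0.23 and 0.11) and *Cebpb* 1.17 (-3.15 and 1.17). The values with no setting named came from leaving out a liver. DESeq2 gave no adjusted *P* for *Cebpb* with ethanol in WT, so that value is left out. Calls over all genes varied more. For ethanol in WT 1224 became 2335 with DESeq2, 1883 with limma on log2(FPKM + 1), 539 with the replicate block and as few as 360 without WT control liver 2. For genotype on the ethanol diet 149 became 1511, 382 and 247 in the same fits, 92 with quantile normalization, 575 in the single fit and as few as 10 without *Ahr* HKO ethanol liver 3. For ethanol in *Ahr* HKO 4374 became 2588 without *Ahr* HKO ethanol liver 3, and for genotype on the control diet 4166 became 2630 or 2729 without WT control liver 2 or 3. The limma fit on log2(FPKM + 1) shifted the median of all genes to 0.10, -0.13 and -0.14 for ethanol in WT, genotype on the ethanol diet and the difference of diet effects. The cause of these changes was not tested. Depth limits the ligands with too few reads to be tested.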
